A study of Mus musculus with 12 samples.

Results

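The 45 genes described here are interferon-induced antiviral genes and the interferon-induced GTPases of the IRG and GBP families. They were taken by gene symbol from lung RNA-seq tables that list 20774 genes in all, and all 45 were found. All 45 were also among the 15921 genes that passed a filter on low counts and were tested. The lungs came from wild type C57BL/6J mice, labelled as aged 8 weeks. Paraquat (PQ), a herbicide that injures the lung, was given once into the trachea in saline, and control mice received saline. The 12 libraries form 4 groups of 3, namely control and PQ with the time label 1w and control and PQ with the time label 4w, read here as weeks. The labels number the replicates without saying that each is another animal. Every p-value therefore covers the spread among these libraries only.

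Interferons are secreted proteins that warn cells of infection. Type I interferons signal through a receptor whose kinases activate the complex ISGF3, which holds STAT2 and IRF9 and binds the interferon-stimulated response element (ISRE), while interferon gamma acts mainly through the gamma-activated site (GAS). The induced genes encode sensors of foreign nucleic acid, enzymes and binding proteins that block viral replication, and GTPases of the IRG and GBP families, many of them strongly induced by interferon gamma, that act on the vacuoles in which intracellular pathogens live.

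Most members with a promoter window share letters there. The letters were not read to choose the members, but these are known as interferon-induced genes, and interferons act through such letters. The counts are therefore a description and not independent evidence. RefSeq promoter windows of GRCm38.p6, from 250 bases before to 50 bases after each transcription start, were on hand for 31 of the 45 members. The ISRE core, which reads GAAA, any 2 bases and GAAA, was searched on both strands and occurred in 20 of these 31 members (64.5%), against 4.0% of all 27025 genes with a window and 3.9% of the 12520 tested genes with one. The GAS letters TTCNNNGAA occurred in 9 of the 31 (29.0%), against 9.6% of all genes and 8.5% of tested genes, and the Bst2 window alone had a GAS match that overlapped an ISRE match. The stretches below show the motif in members of 6 roles on which the results turn, and how alike it is in neighbouring copies of a gene. Each is written 5′ to 3′ on the gene's own strand, with ISRE matches in capitals (as TTTC, any 2 bases and TTTC where the motif lies on the opposite strand).
Stat2 (chr10:128270261-128270300, + strand): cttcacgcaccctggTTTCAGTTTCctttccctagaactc
Oas1a (chr5:120907515-120907554, - strand): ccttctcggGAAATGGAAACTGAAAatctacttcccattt
Oas1g (chr5:120887601-120887640, - strand): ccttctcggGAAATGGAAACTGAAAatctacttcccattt
Ifit3 (chr19:34583392-34583431, + strand): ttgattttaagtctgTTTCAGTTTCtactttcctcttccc
Ifit3b (chr19:34607788-34607827, + strand): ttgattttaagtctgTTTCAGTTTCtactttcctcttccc
Isg15 (chr4:156200860-156200899, - strand): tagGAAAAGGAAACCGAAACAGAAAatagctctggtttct
Igtp (chr11:58199507-58199546, + strand): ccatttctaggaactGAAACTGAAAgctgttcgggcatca
Irgm2 (chr11:58214898-58214937, + strand): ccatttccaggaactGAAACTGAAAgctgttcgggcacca
Gbp3 (chr3:142559990-142560029, + strand): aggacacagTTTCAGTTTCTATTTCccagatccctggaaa
Gbp5 (chr3:142496754-142496793, + strand): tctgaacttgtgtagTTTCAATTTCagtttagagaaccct
The Isg15 window held 3 overlapping matches. The printed stretches of Oas1a and Oas1g were the same, as were those of Ifit3 and Ifit3b. The 11 members whose window held no ISRE match were Irf7, Irf9, Oasl1, Oasl2, Ifit2, Isg20, Cmpk2, Xaf1, Ifi44, Ifi35 and Ifi47, which says only that these letters are not in that window. A match is a description of the letters and not a bound site. The 14 members without an entry were Dhx58, Zbp1, Oas2, Mx1, Mx2, Usp18, Parp14, Rtp4, Iigp1, Gbp4, Gbp6, Gbp8, Gbp9 and Gbp10.

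Library totals ran from 17220978 to 18559809 expected counts, and levels are given as CPM, which are counts scaled to the library total, in the order of replicates 1, 2 and 3. A log2 effect is PQ against control at one time, ± marks its approximate standard error, and n is 3 libraries per group. Adjusted p-values come from edgeR's quasi-likelihood test on all 12 libraries with Benjamini-Hochberg adjustment over all tested genes, and a gene passed, and is said to have risen or fallen, where adjusted p was under 0.05. One library stood apart: replicate 3 of PQ 4w had the highest CPM of all 12 libraries for 45 of 45 members, which held for 10.1% of all tested genes. Its CPM was above 1.5 times the mean of replicates 1 and 2 for 39 members, against 4.72% of all tested genes, with a median ratio over the members of 1.94 and a range from 1.13 for Isg20 to 8.04 for Gbp10. The counts of members at 4w, and the 4w effects of most members that rose and of some others, are therefore given with and without it. Calls of the pathway and marker lists at 4w are given with it only.

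At 1w the members were lower in PQ lungs. Of the 45 members 25 fell and 0 rose, against 22.9% of all tested genes that fell and 25.9% that rose (48.8% in either direction). The median log2 effect was -0.67 over the members and 0.0047 over all tested genes, and 42 of 45 effects were below 0. At an unadjusted p under 0.05, 29 were lower and 0 higher, a count for which the share of all genes is not given here. DESeq2 called 29 lower and 0 higher, and 43.4% of all genes in either direction. The 3 PQ 1w libraries lay below all 3 control 1w libraries for 36 members, a pattern seen in 27.1% of tested genes, and above them for Ifit2, a pattern seen in 31.5%. In bulk lung, fewer cells of a type and less RNA per cell cannot be told apart. Of the 25 members that fell, 16 passed in each of the 12 fits that left out 1 library, and the others were Usp18, Gbp3, Gbp9, Bst2, Oas1a, Gbp2, Trim30a, Ifi47 and Xaf1. Without PQ 4w replicate 3, which enters this comparison through the shared estimate of spread, 36 members were called lower and Ifit2 and Iigp1 higher, against 23.9% and 27.5% of the genes tested there. The 11 members called lower in that fit but not in the main test were Ddx58, Ifih1, Irf7, Oas3, Oasl1, Oasl2, Ifit1, Ifit3b, Isg15, Rsad2 and Gbp10. Some of these were also called lower in other alternative fits, as Oas3, Oasl2, Rsad2 and Gbp10 were by DESeq2.

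At 4w the order was the opposite. Of the 45 members 25 rose and 0 fell, against 5.75% of all tested genes that rose and 6.39% that fell, and the median log2 effect was 0.82 against 0.0043 over all tested genes. Effects were above 0 for 43 members, all but Bst2 and Ifi35. At an unadjusted p under 0.05, 38 were higher and 0 lower. DESeq2 called 31 higher and 0 lower, and 13.5% of all genes in either direction. All 3 PQ 4w libraries lay above all 3 control 4w libraries for 31 members, against 20.9% of tested genes. Without PQ 4w replicate 3, 19 members rose, all of them among the 25, the median log2 effect was 0.39 and the share of all tested genes that rose was 6.59%. A fit of the 6 libraries of 4w alone called 2 members, Mx1 and Oas1g, and 4.79% of all genes in either direction. Those 2 were also the only members called in each of the 12 fits without 1 library. Leaving out control 4w replicate 1, 2 or 3 left 3, 6 or 6 calls.

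The effect of PQ differed between the times for most members. The difference of the effects, 4w minus 1w, was above 0 for all 45 and passed for 40, against 14.1% of all tested genes that passed in that direction, and 0 passed in the other direction, against 17.9% (32% in either direction). At an unadjusted p under 0.05, 0 members were lower. DESeq2 also called 0 lower and 41 higher, and 31.5% of all genes in either direction. The median difference was 1.39 over the members and -0.01 over all tested genes. The 5 members that did not pass were Ifit2, Ifit3, Bst2, Iigp1 and Gbp9. Without PQ 4w replicate 3, 39 of the 40 passed, all but Ifi35, with a median of 0.96. In each of the 12 fits without 1 library 36 of the 40 passed, and the others were Ifit3b, Zbp1, Ifi35 and Isg15.

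Treated lungs and control lungs were also compared across time. From PQ 1w to PQ 4w, 43 members were higher, against 26.7% of all tested genes, and 0 were lower, against 27.8%. At an unadjusted p under 0.05 and by DESeq2, 0 were lower as well, when DESeq2 called 46.9% of all genes in either direction. The PQ 4w libraries lay above the PQ 1w libraries for 42 members, against 34% of tested genes, and in no member lay below them, against 27%. The members that did not pass were Ifit2 and Iigp1, which had the highest effects at 1w. From control 1w to control 4w 0 members rose and 0 fell, against 5.9% and 4.2% of all tested genes, with a median log2 difference of -0.21. The control 4w libraries lay wholly above control 1w for 0 members and wholly below for 15, against 19.8% and 14.2% of tested genes. At an unadjusted p under 0.05 the counts were 0 and 0, and DESeq2 called 0, against 15.3% of all genes in either direction. Without PQ 4w replicate 3, 8 members were called lower in control 4w than in control 1w, namely Ddx58, Zbp1, Oas2, Oas3, Isg15, Rsad2, Gbp2 and Gbp6, against 6.67% of the genes tested in that fit, and 0 were called higher, against 9.3%.

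**Figure D1:**
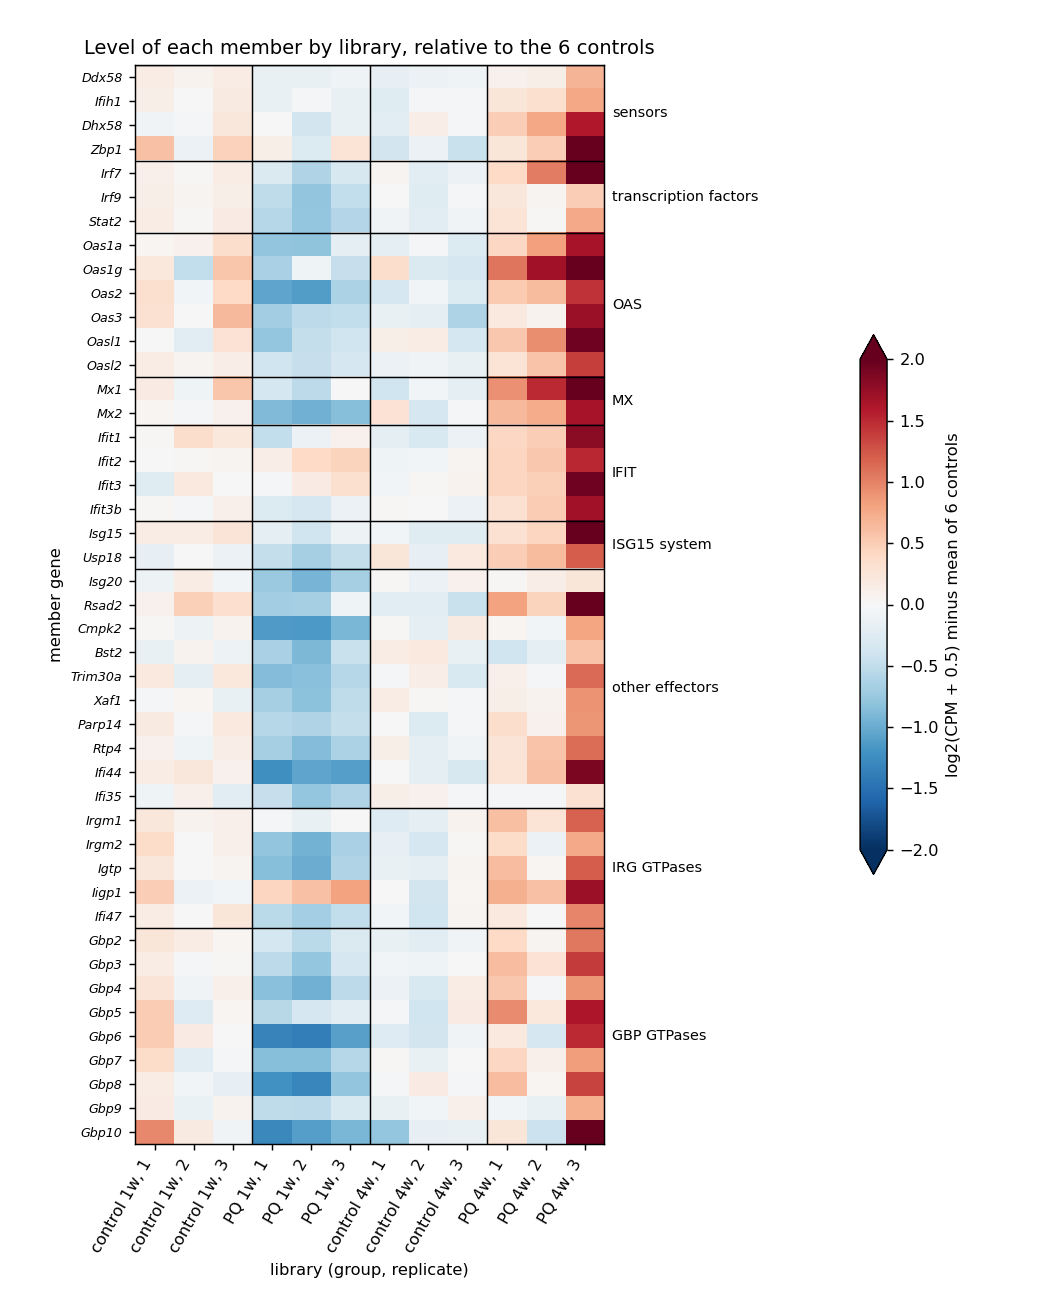
Heat map of the 45 members (rows, by role) in the 12 libraries (columns), as log2(CPM + 0.5) with the average of the control libraries of both times subtracted. Blue fills most of the PQ 1w columns, and the PQ 4w replicate 3 column has the deepest red, with a median of 1.39 over the members against 0.37 and 0.27 in replicates 1 and 2.

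The median over the members of this level relative to control places the libraries in order. It was 0.15, 0.0006 and 0.10 in control 1w, -0.57, -0.67 and -0.46 in PQ 1w, and -0.05, -0.16 and -0.04 in control 4w. In PQ 4w it was 0.37, 0.27 and 1.39. The 4 groups did not overlap on this scale, and replicate 3 of PQ 4w was farther above the controls than any PQ 1w library was below them.

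The sensors recognise foreign nucleic acid and start the response. Of these 4 members, 0 fell at 1w and 3 rose at 4w, and all 4 differed between the times. Ddx58 and Ifih1 were called lower at 1w without PQ 4w replicate 3 (log2 -0.25 ± 0.06, adjusted p = 0.00263 and log2 -0.21 ± 0.08, adjusted p = 0.0407). Ddx58, which encodes RIG-I, a sensor of viral RNA ends, was at 73.7, 69.5 and 73.7 CPM in control 1w and 59.97, 60.03 and 62.5 CPM in PQ 1w. In control 4w Ddx58 was at 59.1, 61.3 and 62.6 CPM and in PQ 4w at 70.4, 72.4 and 106 CPM. Its PQ 1w libraries all lay below control 1w and its PQ 4w libraries all above control 4w, but neither effect passed (log2 -0.26 ± 0.12, adjusted p = 0.0969 at 1w and log2 0.37 ± 0.12, adjusted p = 0.06700000 at 4w), while their difference did (log2 0.63 ± 0.17, adjusted p = 0.0153). Ifih1, which encodes MDA5, a sensor of long double-stranded RNA, was at 38.99, 35.9 and 40.7 CPM in control 1w and 32.4, 35.4 and 32.2 CPM in PQ 1w. In control 4w Ifih1 was at 30.2, 35.4 and 34.95 CPM and in PQ 4w at 42.4, 44.7 and 61.6 CPM. It did not pass at 1w (log2 -0.22 ± 0.12, adjusted p = 0.159) and rose 1.41-fold at 4w (log2 0.50 ± 0.12, adjusted p = 0.0218), and also without replicate 3 of PQ 4w (log2 0.31 ± 0.09, adjusted p = 0.0361). Dhx58, which encodes LGP2, a helper of MDA5, rose 2.06-fold at 4w (log2 1.04 ± 0.24, adjusted p = 0.0172), from 8.62 to 11.2 CPM in the controls to 14.6 to 31.9 CPM. Zbp1 senses nucleic acid in the Z form and can start necroptosis. It was at 14.96, 8.97 and 13.6 CPM in control 1w and 10.6, 8.04 and 11.9 CPM in PQ 1w. In control 4w Zbp1 was at 7.49, 9.02 and 7.07 CPM and in PQ 4w at 11.7, 13.98 and 43.5 CPM. Control 1w and PQ 1w overlapped, and the rise at 4w (log2 1.48 ± 0.41, adjusted p = 0.0369) rested on replicate 3, at 3.38 times the mean of the other two: without it Zbp1 did not pass (log2 0.64 ± 0.22, adjusted p = 0.0689).

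Of the 3 transcription factors, Stat2 and Irf9, subunits of ISGF3, fell at 1w and did not pass at 4w. Irf7, the factor that amplifies type I interferon transcription, rose at 4w. Stat2 was at 90.6, 83.5 and 91.5 CPM in control 1w and 54.9, 47.6 and 54.5 CPM in PQ 1w. In control 4w Stat2 was at 78.3, 70.99 and 78.1 CPM and in PQ 4w at 99.5, 83.2 and 139 CPM. It fell to 0.587 times control at 1w (log2 -0.77 ± 0.14, adjusted p = 0.000869), with no overlap between groups, and at 4w its libraries also lay apart without passing (log2 0.43 ± 0.14, adjusted p = 0.0712). Irf9 was at 73.6, 70.2 and 73.5 CPM in control 1w, 47.8, 39.1 and 48.1 CPM in PQ 1w, 67.99, 57.6 and 65.98 CPM in control 4w and 79.6, 70.7 and 96.2 CPM in PQ 4w, and fell to 0.617 times control at 1w (log2 -0.70 ± 0.11, adjusted p = 0.000333), with a 4w effect that did not pass (log2 0.29 ± 0.11, adjusted p = 0.116). Irf7 was at 27.6, 25.9 and 28.3 CPM in control 1w and 20.9, 16.7 and 20.4 CPM in PQ 1w. In control 4w Irf7 was at 26.6, 22.1 and 23.5 CPM and in PQ 4w at 33.7, 52.7 and 145 CPM. The PQ 1w libraries lay below the controls without passing (log2 -0.51 ± 0.40, adjusted p = 0.318), and the decrease passed without PQ 4w replicate 3 (log2 -0.50 ± 0.16, adjusted p = 0.0186). At 4w Irf7 rose 3.05-fold (log2 1.61 ± 0.39, adjusted p = 0.0209) with all PQ libraries above all controls, and without replicate 3, which was 3.36 times the mean of the other two, the effect was smaller and passed (log2 0.78 ± 0.17, adjusted p = 0.0117). The effects of all 3 genes differed between the times, with log2 differences of 0.99 ± 0.16 for Irf9, 1.195 ± 0.20 for Stat2 and 2.11 ± 0.56 for Irf7.

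The OAS enzymes sense double-stranded RNA and make oligoadenylates, which lead to the breakdown of RNA, and the OASL proteins are relatives. Of these 6 members 2 fell at 1w, Oas2 and Oas1a, 5 rose at 4w, and all 6 differed between the times. Oas2 was at 28.9, 22.2 and 30.6 CPM in control 1w and 10.8, 10.4 and 14.7 CPM in PQ 1w. In control 4w Oas2 was at 18.3, 22.2 and 19.1 CPM and in PQ 4w at 33.3, 36.1 and 63.5 CPM. The 4 groups did not overlap, the controls of the 2 times by a narrow margin: Oas2 fell to 0.436 times control at 1w (log2 -1.197 ± 0.23, adjusted p = 0.00105) and rose 2.12-fold at 4w (log2 1.09 ± 0.22, adjusted p = 0.00995), also without replicate 3 (log2 0.74 ± 0.15, adjusted p = 0.00939). Oas1a was at 13.8, 14.4 and 17.4 CPM in control 1w and 7.59, 7.502 and 11.7 CPM in PQ 1w. In control 4w Oas1a was at 11.8, 13.2 and 11.1 CPM and in PQ 4w at 18.2, 24.3 and 43.3 CPM. It fell to 0.582 times control (log2 -0.78 ± 0.28, adjusted p = 0.0338) and rose 2.26-fold (log2 1.18 ± 0.27, adjusted p = 0.0162), with no overlap at either time, and the rise passed without replicate 3 (log2 0.75 ± 0.19, adjusted p = 0.0245). Its neighbour Oas1g was at 2.77, 1.53 and 3.65 CPM in control 1w and 1.302, 2.16 and 1.56 CPM in PQ 1w. In control 4w Oas1g was at 3.11, 1.83 and 1.76 CPM and in PQ 4w at 5.47, 8.62 and 12.2 CPM. Control 1w and PQ 1w overlapped (log2 -0.67 ± 0.39, adjusted p = 0.176), and the 4w rise was 3.74-fold (log2 1.902 ± 0.36, adjusted p = 0.00683), with replicates 1 and 2 of PQ 4w also above every control and a pass without replicate 3 (log2 1.59 ± 0.35, adjusted p = 0.0118). Oas1a and Oas1g are close copies: 57.57% of the 50-base words of Oas1a transcripts occur in Oas1g, so the split of reads between them is uncertain. Their summed counts fell at 1w (log2 -0.76, adjusted p = 0.0312) and rose at 4w (log2 1.32, adjusted p = 0.00827). Oasl2 was at 66.1, 61.5 and 65.2 CPM in control 1w and 44.8, 43.1 and 47.03 CPM in PQ 1w. In control 4w Oasl2 was at 54.4, 56.5 and 53.6 CPM and in PQ 4w at 71.9, 87.9 and 156 CPM. Its groups lay apart at both times, the 1w effect just missed the threshold (log2 -0.52 ± 0.21, adjusted p = 0.0528) and the 4w rise passed (log2 0.87 ± 0.21, adjusted p = 0.0184), also without replicate 3 (log2 0.48 ± 0.09, adjusted p = 0.00534). Oasl1, which restrains the making of IRF7 protein, rose 2.49-fold at 4w (log2 1.32 ± 0.33, adjusted p = 0.0237). Oas3 passed at neither time (log2 -0.97 ± 0.38, adjusted p = 0.0509 and log2 1.15 ± 0.37, adjusted p = 0.0652), with PQ 4w at 12.9, 11.8 and 38.3 CPM against 10.03, 9.81 and 7.13 CPM in control 4w, and its effect without replicate 3 was log2 0.39 ± 0.19, adjusted p = 0.195.

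The MX proteins are dynamin-like GTPases that trap viral components. Many laboratory mouse strains, C57BL/6 among them, carry a deletion in Mx1 that leaves no functional MX1 protein, so its transcript is a readout of induction here. Mx1 was at 4.88, 4.01 and 6.54 CPM in control 1w and 3.25, 2.83 and 4.298 CPM in PQ 1w. In control 4w Mx1 was at 3.16, 4.0996 and 3.76 CPM and in PQ 4w at 8.54, 13.02 and 31.6 CPM. Control 1w and PQ 1w overlapped by a narrow margin (log2 -0.58 ± 0.42, adjusted p = 0.268). At 4w Mx1 rose 4.58-fold (log2 2.196 ± 0.40, adjusted p = 0.005904), the largest 4w effect of the 45 members, and all 3 PQ libraries lay above every control. Without replicate 3 the effect was smaller and passed (log2 1.49 ± 0.25, adjusted p = 0.00295). Mx2 was at 3.35, 3.19 and 3.49 CPM in control 1w and 1.55, 1.44 and 1.59 CPM in PQ 1w. In control 4w Mx2 was at 4.08, 2.46 and 3.14 CPM and in PQ 4w at 5.39, 5.77 and 11.3 CPM. It fell to 0.454 times control at 1w (log2 -1.14 ± 0.30, adjusted p = 0.00813) and rose 2.21-fold at 4w (log2 1.15 ± 0.27, adjusted p = 0.0187), with no overlap at either time, and passed at 4w without replicate 3 (log2 0.72 ± 0.20, adjusted p = 0.03303). The 2 genes lie next to each other on chromosome 16 (97447035 to 97462906 and 97536081 to 97560901, GRCm38), and the effects of both differed between the times, by 2.78 ± 0.58 and 2.28 ± 0.41 on the log2 scale.

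**Figure D2:**
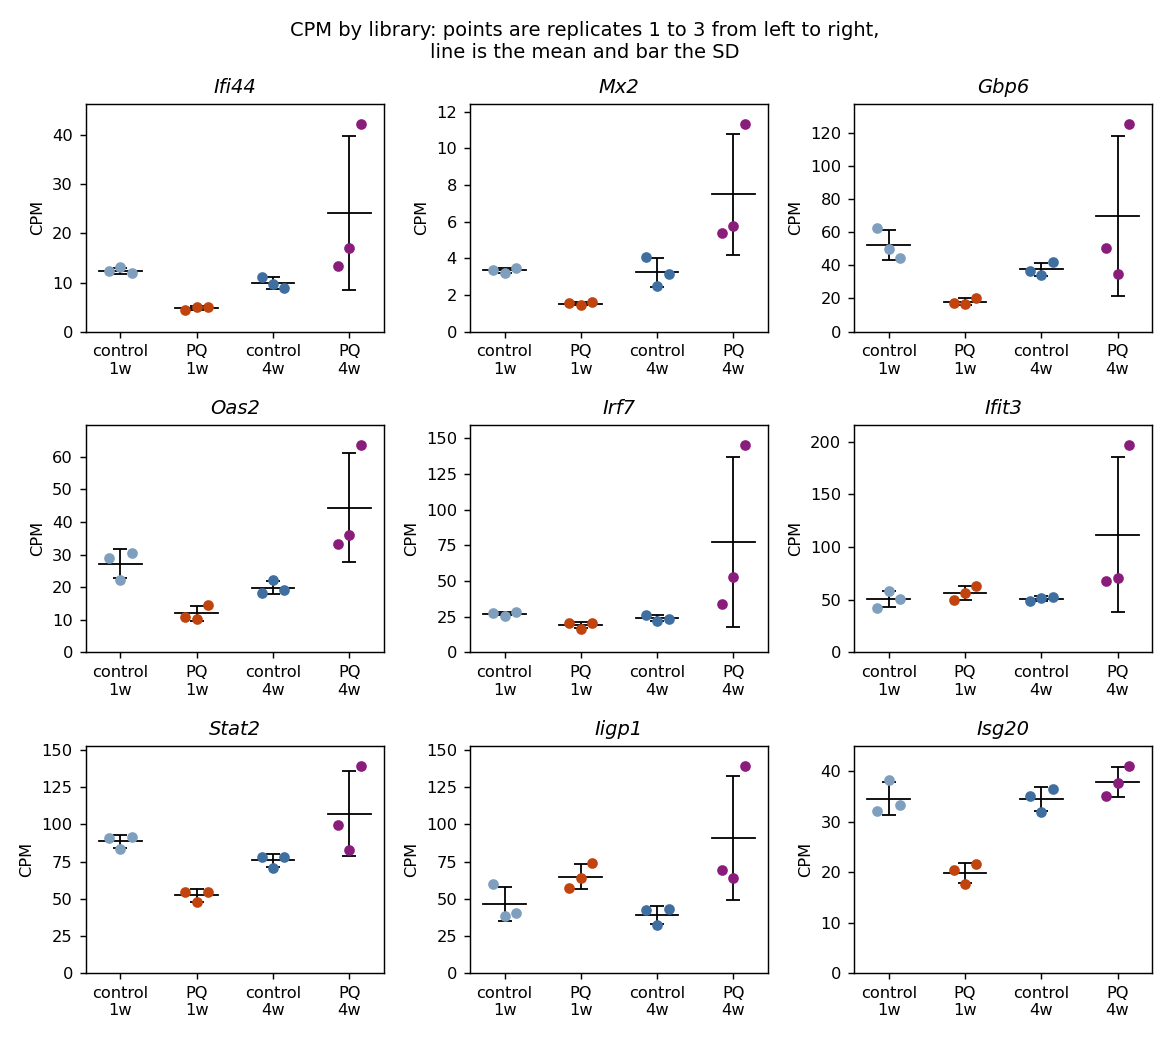
CPM (y axis) of 9 members in the 4 groups (x axis), with 1 point per library, the mean as a line and the SD as a bar. PQ 1w points lie below control 1w for Ifi44, Mx2, Gbp6, Oas2, Irf7, Stat2 and Isg20 but not for Ifit3 and Iigp1, and replicate 3 of PQ 4w is the top point in every panel.

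The IFIT proteins bind viral RNA and hold back its translation, and their 4 genes lie together on chromosome 19 (34550550 to 34650009). At 1w 0 of the 4 fell, and the effects of Ifit2 and Ifit3 were above 0. Ifit1 and Ifit3b were called lower at 1w without PQ 4w replicate 3 (log2 -0.37 ± 0.14, adjusted p = 0.0376 and log2 -0.29 ± 0.11, adjusted p = 0.0369). Ifit2 was at 25.2, 25.7 and 26.2 CPM in control 1w and 27.6, 33.3 and 34.5 CPM in PQ 1w. In control 4w Ifit2 was at 23.8, 24.3 and 26.4 CPM and in PQ 4w at 34.03, 36.9 and 72.6 CPM. Its PQ 1w libraries were the only ones among the members to lie wholly above control 1w, though the effect did not pass (log2 0.30 ± 0.22, adjusted p = 0.297), and at 4w Ifit2 rose 1.83-fold (log2 0.87 ± 0.22, adjusted p = 0.0259). Without replicate 3 of PQ 4w, both effects passed (log2 0.30 ± 0.09 at 1w, adjusted p = 0.0111, and 0.45 ± 0.10 at 4w, adjusted p = 0.0117). Ifit1, which binds RNA without a methylated cap, was at 18.2, 22.9 and 20.8 CPM in control 1w and 12.6, 16.4 and 19.04 CPM in PQ 1w. In control 4w Ifit1 was at 15.8, 14.4 and 16.4 CPM and in PQ 4w at 23.97, 25.2 and 63.4 CPM. Control 1w and PQ 1w overlapped (log2 -0.38 ± 0.31, adjusted p = 0.339), and at 4w Ifit1 rose 2.30-fold (log2 1.199 ± 0.31, adjusted p = 0.0267), also without replicate 3 (log2 0.59 ± 0.15, adjusted p = 0.0231). Ifit3, a partner of Ifit1, was at 42.6, 57.9 and 50.6 CPM in control 1w and 49.4, 56.5 and 62.96 CPM in PQ 1w. In control 4w Ifit3 was at 48.5, 51.2 and 52.96 CPM and in PQ 4w at 67.9, 70.4 and 196 CPM. The PQ 4w libraries lay above every control, yet the effect missed the threshold (log2 1.06 ± 0.32, adjusted p = 0.0515), with replicate 3 at 2.84 times the mean of the other two and a smaller effect without it (log2 0.37 ± 0.12, adjusted p = 0.0611). Its copy Ifit3b rose 1.94-fold at 4w (log2 0.96 ± 0.28, adjusted p = 0.0451), and 51.24% of the 50-base words of Ifit3 occur in Ifit3b, so their split of reads is uncertain. The 2 genes summed passed at 4w (log2 1.04, adjusted p = 0.0478) and not at 1w (log2 0.07, adjusted p = 0.873). Their summed difference between the times did not pass (log2 0.97, adjusted p = 0.109). The difference between the times passed for Ifit1 (log2 1.58 ± 0.44, adjusted p = 0.0166) and Ifit3b (log2 1.25 ± 0.40, adjusted p = 0.0315) but not for Ifit2 (log2 0.58 ± 0.32, adjusted p = 0.182) or Ifit3 (log2 0.91 ± 0.45, adjusted p = 0.146).

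ISG15 is a ubiquitin-like protein attached to other proteins, and USP18 removes it and dampens the type I receptor. Isg15 was at 12.1, 12.04 and 13.2 CPM in control 1w and 9.47, 8.12 and 10.1 CPM in PQ 1w. In control 4w Isg15 was at 10.4, 9.08 and 9.09 CPM and in PQ 4w at 13.5, 14.8 and 49.8 CPM. Its PQ 1w libraries lay below control 1w without passing (log2 -0.44 ± 0.40, adjusted p = 0.383), and at 4w it rose 2.59-fold (log2 1.38 ± 0.39, adjusted p = 0.0404). Replicate 3 was 3.52 times the mean of replicates 1 and 2, which were themselves above every control, and without it the effect was log2 0.50 ± 0.13, adjusted p = 0.0266. Usp18 was at 18.4, 20.6 and 18.9 CPM in control 1w and 14.7, 12.8 and 14.6 CPM in PQ 1w. In control 4w Usp18 was at 24.4, 18.4 and 23.6 CPM and in PQ 4w at 29.2, 32.3 and 48.5 CPM. It fell to 0.721 times control at 1w (log2 -0.47 ± 0.18, adjusted p = 0.0455) and rose 1.57-fold at 4w (log2 0.65 ± 0.17, adjusted p = 0.0297), with no overlap at either time, but missed the threshold at 4w without replicate 3 (log2 0.40 ± 0.13, adjusted p = 0.0607).

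The other 10 effectors carried the most uniform decrease: 9 of 10 fell at 1w, all but Rsad2, and in all 10 the PQ 1w libraries lay below control 1w. At 4w 3 of the 10 rose. Ifi44, an interferon-induced protein with antiviral activity, was at 12.4, 13.1 and 11.8 CPM in control 1w and 4.42, 5.08 and 4.91 CPM in PQ 1w. In control 4w Ifi44 was at 11.2, 9.703 and 8.82 CPM and in PQ 4w at 13.4, 16.96 and 42.2 CPM. It fell to 0.384 times control at 1w (log2 -1.38 ± 0.35, adjusted p = 0.00581) and rose 2.32-fold at 4w (log2 1.22 ± 0.33, adjusted p = 0.0318), with no overlap at either time, and the rise without replicate 3 was smaller and passed (log2 0.55 ± 0.14, adjusted p = 0.0276). The difference between the times, at log2 2.598 ± 0.48, adjusted p = 0.00175, was the third largest of the members, after Gbp10 and Mx1. Rsad2, which encodes viperin, an enzyme that makes a chain-terminating nucleotide, was at 9.75, 12.95 and 11.7 CPM in control 1w and 5.496, 5.61 and 8.56 CPM in PQ 1w. In control 4w Rsad2 was at 7.72, 7.76 and 6.62 CPM and in PQ 4w at 16.4, 12.7 and 40.1 CPM. It did not pass at 1w, though its groups lay apart (log2 -0.82 ± 0.36, adjusted p = 0.0752), and it rose 2.97-fold at 4w (log2 1.57 ± 0.35, adjusted p = 0.0146), also without replicate 3 (log2 0.91 ± 0.19, adjusted p = 0.0104). Its neighbour on chromosome 12, the mitochondrial nucleotide kinase gene Cmpk2, followed another course. Cmpk2 was at 31.4, 28.8 and 32.7 CPM in control 1w, 13.9, 13.7 and 16.3 CPM in PQ 1w, 31.4, 27.2 and 35.1 CPM in control 4w and 31.996, 29.96 and 54.2 CPM in PQ 4w, falling to 0.469 times control at 1w (log2 -1.09 ± 0.19, adjusted p = 0.000623), with overlapping groups at 4w (log2 0.24 ± 0.19, adjusted p = 0.449). Without PQ 4w replicate 3 the 4w effect of Cmpk2 was below 0 (log2 -0.09 ± 0.11, adjusted p = 0.662).

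Rtp4, a Golgi chaperone with antiviral activity, was at 29.9, 26.5 and 30.9 CPM in control 1w and 17.5, 15.1 and 17.8 CPM in PQ 1w. In control 4w Rtp4 was at 30.5, 24.5 and 26.5 CPM and in PQ 4w at 33.4, 41.9 and 61.1 CPM. It fell to 0.574 times control at 1w (log2 -0.80 ± 0.18, adjusted p = 0.00346) and rose 1.59-fold at 4w (log2 0.67 ± 0.18, adjusted p = 0.0305), with the groups apart at both times, and missed the threshold at 4w without replicate 3 (log2 0.40 ± 0.13, adjusted p = 0.0603). The remaining 6 fell at 1w and did not pass at 4w. Isg20, an RNA exonuclease, was at 32.2, 38.2 and 33.3 CPM in control 1w and 20.4, 17.8 and 21.6 CPM in PQ 1w. In control 4w Isg20 was at 35.04, 31.8 and 36.5 CPM and in PQ 4w at 35.1, 37.7 and 40.98 CPM. The fall to 0.572 times control at 1w (log2 -0.81 ± 0.10, adjusted p = 5.52e-05) had the smallest adjusted p of the 45 members, and at 4w the groups overlapped (log2 0.07 ± 0.10, adjusted p = 0.715). Bst2, or tetherin, which holds budding virus at the cell surface, was at 76.6, 89.7 and 79.3 CPM in control 1w and 54.4, 45.6 and 62.4 CPM in PQ 1w. In control 4w Bst2 was at 94.2, 97.1 and 76.4 CPM and in PQ 4w at 64.2, 74.2 and 126 CPM. It fell to 0.656 times control at 1w (log2 -0.61 ± 0.21, adjusted p = 0.0297), and at 4w replicates 1 and 2 lay below every control while replicate 3 lay above every control (log2 -0.09 ± 0.21, adjusted p = 0.826). Without replicate 3 the 4w effect was log2 -0.43 ± 0.14, adjusted p = 0.0553. Ifi35, an interferon-induced leucine zipper protein, was at 53.6, 60.9 and 49.2 CPM in control 1w, 41.2, 32.9 and 37.3 CPM in PQ 1w, 61.9, 59.98 and 55.99 CPM in control 4w and 55.98, 55.6 and 70.5 CPM in PQ 4w, with a fall to 0.676 times control at 1w (log2 -0.57 ± 0.12, adjusted p = 0.00157) and no difference past the threshold at 4w (log2 -0.04 ± 0.11, adjusted p = 0.864). Trim30a, a ring-finger protein that restrains NF-kappaB signalling, was at 48.05, 37.1 and 48.7 CPM in control 1w, 22.96, 23.5 and 28.1 CPM in PQ 1w, 40.8, 46.3 and 34.1 CPM in control 4w and 45.1, 41.2 and 92.8 CPM in PQ 4w, and fell to 0.553 times control at 1w (log2 -0.86 ± 0.25, adjusted p = 0.0148). Xaf1, which counters the apoptosis inhibitor XIAP, was at 22.2, 23.3 and 20.4 CPM in control 1w, 14.1, 12.6 and 15.7 CPM in PQ 1w, 24.98, 22.9 and 21.9 CPM in control 4w and 24.6, 23.8 and 42.4 CPM in PQ 4w, and fell to 0.639 times control (log2 -0.65 ± 0.19, adjusted p = 0.0134). Parp14, an ADP-ribosyltransferase, was at 112, 96.1 and 113 CPM in control 1w, 66.6, 65.05 and 71.5 CPM in PQ 1w, 98.4, 81.8 and 97.3 CPM in control 4w and 127, 106 and 184 CPM in PQ 4w, and fell to 0.628 times control (log2 -0.67 ± 0.16, adjusted p = 0.00411). In Trim30a and Xaf1 PQ 4w overlapped control 4w, and in Parp14 the PQ 4w libraries lay above the controls without passing (log2 0.51 ± 0.16, adjusted p = 0.0554).

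The IRG GTPases load onto vacuoles that hold intracellular pathogens, and are guided by the regulatory members Irgm1, Irgm2 and Igtp. At 1w 3 of 5 fell and at 4w 3 of 5 rose. Irgm2 was at 112, 87.4 and 93.6 CPM in control 1w and 50.2, 44.9 and 55.2 CPM in PQ 1w. In control 4w Irgm2 was at 77.2, 68.8 and 88.5 CPM and in PQ 4w at 112, 79.9 and 148 CPM. It fell to 0.510 times control at 1w (log2 -0.97 ± 0.18, adjusted p = 0.000854), and at 4w the groups overlapped and the effect did not pass (log2 0.46 ± 0.18, adjusted p = 0.113). Igtp, next to Irgm2 on chromosome 11, was at 50.6, 42.8 and 45.1 CPM in control 1w and 23.6, 21.4 and 28.2 CPM in PQ 1w. In control 4w Igtp was at 38.7, 38.2 and 44.98 CPM and in PQ 4w at 66.7, 44.3 and 100.3 CPM. It fell to 0.525 times control (log2 -0.93 ± 0.22, adjusted p = 0.00424) and rose 1.64-fold at 4w with an adjusted p near the threshold (log2 0.72 ± 0.22, adjusted p = 0.0493). Replicate 2 of PQ 4w overlapped the controls, and Igtp did not pass without replicate 3 (log2 0.37 ± 0.15, adjusted p = 0.118). Irgm1 was at 47.9, 42.9 and 44.03 CPM in control 1w and 39.9, 36.9 and 41.3 CPM in PQ 1w. In control 4w Irgm1 was at 34.3, 35.8 and 42.96 CPM and in PQ 4w at 62.6, 49.5 and 93.5 CPM. Its effect at 1w was small and did not pass (log2 -0.20 ± 0.18, adjusted p = 0.361), and at 4w it rose 1.73-fold with no overlap (log2 0.79 ± 0.18, adjusted p = 0.0144), also without replicate 3 (log2 0.50 ± 0.11, adjusted p = 0.0125). Iigp1, an effector GTPase that disrupts vacuoles, had the highest 1w effect of the 45 members. It was at 59.9, 38.9 and 40.8 CPM in control 1w and 57.3, 63.95 and 73.97 CPM in PQ 1w. In control 4w Iigp1 was at 42.3, 32.5 and 43.5 CPM and in PQ 4w at 69.5, 63.96 and 139 CPM. Control 1w and PQ 1w overlapped through control replicate 1 (log2 0.47 ± 0.26, adjusted p = 0.157), and at 4w Iigp1 rose 2.19-fold (log2 1.13 ± 0.27, adjusted p = 0.0181), also without replicate 3 (log2 0.68 ± 0.17, adjusted p = 0.0244). The difference between the times did not pass (log2 0.65 ± 0.37, adjusted p = 0.201), and without PQ 4w replicate 3 the 1w effect passed as a rise (log2 0.48 ± 0.16, adjusted p = 0.0217). Ifi47, another effector GTPase, was at 45.1, 40.7 and 48.04 CPM in control 1w and 27.9, 25.2 and 28.8 CPM in PQ 1w. In control 4w Ifi47 was at 39.3, 30.9 and 42.4 CPM and in PQ 4w at 46.6, 41.1 and 80.7 CPM. It fell to 0.608 times control at 1w (log2 -0.72 ± 0.21, adjusted p = 0.0131) and did not pass at 4w (log2 0.51 ± 0.21, adjusted p = 0.131).

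The GBP GTPases coat vacuoles and bacteria and promote inflammasome activation. Of these 9 members 7 fell at 1w, all but Gbp5 and Gbp10, and 3 rose at 4w. The 3 that rose, Gbp2, Gbp3 and Gbp5, lie in the cluster of 4 on chromosome 3 (142496934 to 142638008), and 0 of the 5 in the cluster on chromosome 5 (105012513 to 105295871) passed at 4w; the difference between the clusters was not tested. Gbp2 was at 76.2, 71.8 and 66.7 CPM in control 1w and 50.6, 44.3 and 52.8 CPM in PQ 1w. In control 4w Gbp2 was at 58.1, 55.9 and 61.5 CPM and in PQ 4w at 85.8, 67.3 and 135 CPM. It fell to 0.682 times control at 1w (log2 -0.55 ± 0.18, adjusted p = 0.0264) and rose 1.56-fold at 4w (log2 0.64 ± 0.18, adjusted p = 0.0423), with the groups apart at both times. Gbp3 was at 32.1, 28.4 and 29.6 CPM in control 1w and 20.02, 16.7 and 22.9 CPM in PQ 1w. In control 4w Gbp3 was at 27.95, 27.3 and 28.9 CPM and in PQ 4w at 44.6, 35.4 and 77.6 CPM. It fell to 0.658 times control (log2 -0.60 ± 0.22, adjusted p = 0.0406) and rose 1.78-fold (log2 0.83 ± 0.22, adjusted p = 0.0289), again without overlap. Without replicate 3 of PQ 4w the rise passed for Gbp3 (log2 0.44 ± 0.12, adjusted p = 0.0297) and not for Gbp2 (log2 0.31 ± 0.10, adjusted p = 0.0618). Gbp5, which promotes NLRP3 inflammasome assembly, rose 2.09-fold at 4w (log2 1.06 ± 0.30, adjusted p = 0.03897), with PQ 4w at 28.5, 17.1 and 46.1 CPM against 14.2, 10.97 and 16.5 CPM in control 4w, and did not pass without replicate 3 (log2 0.64 ± 0.24, adjusted p = 0.101). Gbp7, the remaining gene of that cluster, was at 83.04, 54.6 and 63.4 CPM in control 1w and 35.5, 35.5 and 43.1 CPM in PQ 1w. In control 4w Gbp7 was at 65.1, 58.2 and 64.4 CPM and in PQ 4w at 85.4, 68.8 and 115 CPM. It fell to 0.564 times control at 1w (log2 -0.83 ± 0.18, adjusted p = 0.00218), and at 4w its libraries lay above the controls without passing (log2 0.45 ± 0.17, adjusted p = 0.115).

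On chromosome 5, Gbp6 was at 62.6, 49.7 and 44.5 CPM in control 1w and 17.3, 16.6 and 20.5 CPM in PQ 1w. In control 4w Gbp6 was at 36.9, 34.2 and 42.03 CPM and in PQ 4w at 50.3, 34.7 and 125 CPM. It fell to 0.344 times control at 1w (log2 -1.54 ± 0.36, adjusted p = 0.00387), the largest decrease among the members that passed. At 4w the groups overlapped (log2 0.82 ± 0.35, adjusted p = 0.144), with replicate 3 at 2.95 times the mean of the other two, and without it the effect was log2 0.10 ± 0.16, adjusted p = 0.736. Gbp10 was the least abundant member, at 3.81, 2.02 and 1.61 CPM in control 1w and 0.409, 0.5295 and 0.676 CPM in PQ 1w. In control 4w Gbp10 was at 0.802, 1.48 and 1.497 CPM and in PQ 4w at 2.13, 1.14 and 13.2 CPM. Its effects were large and uncertain and passed at neither time (log2 -2.18 ± 0.85, adjusted p = 0.0508 and log2 2.04 ± 0.73, adjusted p = 0.0916), and replicate 3 of PQ 4w was 8.04 times the mean of the other two. Without replicate 3 the decrease at 1w passed (log2 -2.17 ± 0.41, adjusted p = 0.000849) and the 4w effect was log2 0.31 ± 0.42, adjusted p = 0.677. Gbp10 shares 73.27% of its 50-base words with Gbp6, and 64.98% of those of Gbp6 occur in another annotated copy, Gm43302, so the values of both are uncertain as to copy. Gm43302 was not in the sum. Gbp6 and Gbp10 summed fell at 1w (log2 -1.56, adjusted p = 0.00486) and did not pass at 4w (log2 0.88, adjusted p = 0.137). Gbp8 was at 9.96, 8.57 and 7.95 CPM in control 1w, 3.58, 3.34 and 4.97 CPM in PQ 1w, 8.66, 10.04 and 8.73 CPM in control 4w and 13.9, 9.18 and 23.6 CPM in PQ 4w, and fell to 0.445 times control at 1w (log2 -1.17 ± 0.28, adjusted p = 0.00479). Gbp4 was at 79.5, 63.3 and 71.5 CPM in control 1w, 37.3, 34.1 and 46.3 CPM in PQ 1w, 61.5, 53.8 and 74.3 CPM in control 4w and 97.4, 65.4 and 124 CPM in PQ 4w, and fell to 0.545 times control (log2 -0.87 ± 0.20, adjusted p = 0.00313). Gbp9 was at 58.6, 47.97 and 54.96 CPM in control 1w, 36.6, 36.3 and 42.6 CPM in PQ 1w, 47.1, 50.5 and 56.6 CPM in control 4w and 50.6, 47.3 and 86.5 CPM in PQ 4w, and fell to 0.710 times control (log2 -0.49 ± 0.18, adjusted p = 0.04204). In these 3 genes the PQ 4w libraries overlapped the controls at 4w, with effects of 0.69 ± 0.26, 0.52 ± 0.19 and 0.19 ± 0.18 on the log2 scale for Gbp8, Gbp4 and Gbp9.

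The median log2 effect of every role was below 0 at 1w and above 0 at 4w. At 1w it was -0.86 for MX, -0.83 for the GBP genes, -0.80 for the other effectors, -0.74 for OAS, -0.72 for the IRG genes and -0.70 for the transcription factors. The ISG15 system, the sensors and the IFIT genes were at -0.46, -0.25 and -0.08. At 4w it was 1.67 for MX, 1.16 for OAS, 1.01 for both IFIT and the ISG15 system and 0.77 for the sensors. The IRG genes, the GBP genes, the transcription factors and the other effectors were at 0.72, 0.69, 0.43 and 0.40. The differences between roles were not tested. Of the 45 members 9 both fell at 1w and rose at 4w, namely Oas1a, Oas2, Mx2, Usp18, Rtp4, Ifi44, Igtp, Gbp2 and Gbp3. A further 16 passed only at 1w, 16 only at 4w, and Ddx58, Oas3, Ifit3 and Gbp10 at neither. The correlation of the 1w and 4w log2 effects across the 45 members was r = -0.095 (Spearman's rho = 0.043), as a description of genes measured in the same libraries. The 20 members with an ISRE match had median effects of -0.61 at 1w and 0.81 at 4w and the 11 without a match -0.69 and 0.51, which was not tested.

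**Figure D3:**
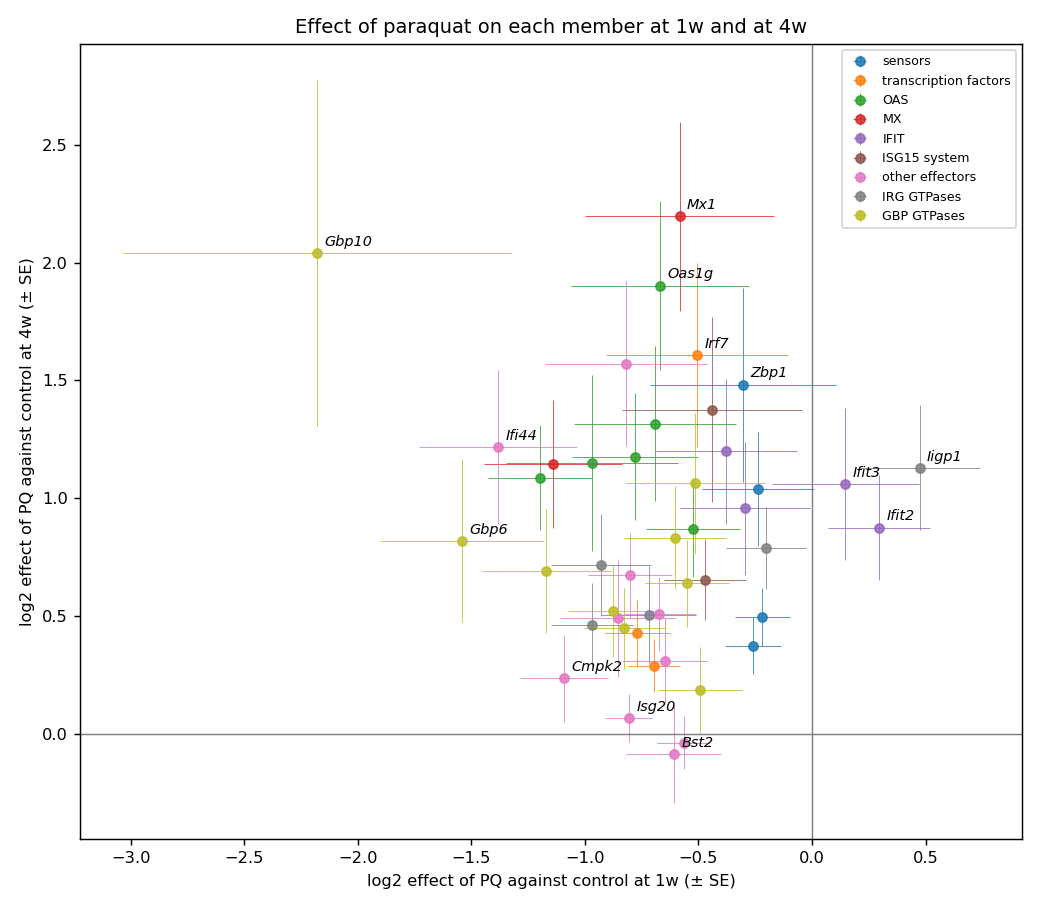
Log2 effect of PQ against control at 1w (x axis) and at 4w (y axis) for the 45 members, coloured by role, with bars for the approximate standard error. Most points lie at the upper left, below 0 at 1w and above 0 at 4w, while Ifit2, Ifit3 and Iigp1 are above 0 at both times and Bst2 and Ifi35 below 0 at both.

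**Figure D4:**
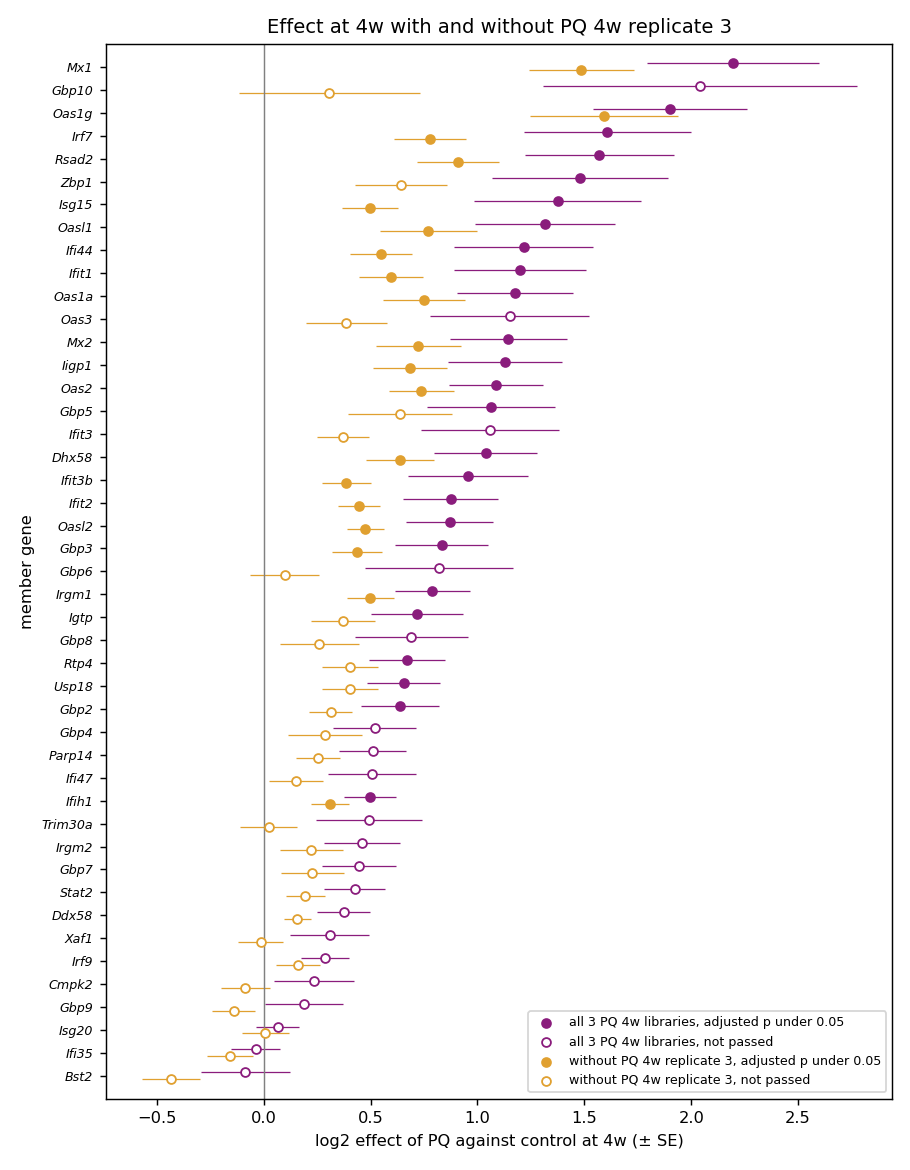
Log2 effect of PQ against control at 4w (x axis, with approximate standard error) for each member (y axis, ordered by effect), from all 3 PQ 4w libraries and without replicate 3. The median falls from 0.82 to 0.39 and the filled points, which mark adjusted p under 0.05, from 25 to 19.

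Leaving out PQ 4w replicate 3 lowered the 4w effects throughout, as the plot of effects with and without it shows, and 40 of 45 stayed above 0. Those below 0 were Bst2, Ifi35, Gbp9, Cmpk2 and Xaf1, at log2 -0.43, -0.16, -0.14, -0.09 and -0.01. The 6 members no longer called were Zbp1, Usp18, Rtp4, Igtp, Gbp2 and Gbp5.

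Levels were compared between genes only in FPKM, the deposited values per transcript length. In control 1w Bst2 had the highest mean, 96.9 FPKM, followed by Ifi35 at 40.5, Isg20 at 33.9 and Irf9 at 29.8 FPKM, and the lowest were Mx2 at 1.37, Oas1g at 1.303 and Gbp10 at 0.697 FPKM. Bst2 stayed highest in PQ 4w, at 104 FPKM, and Ifit3, at 55.8 FPKM, and Irf7, at 42.1 FPKM, held ranks 2 and 4 there against ranks 8 and 17 in control 1w. These PQ 4w means include replicate 3, which had the highest CPM of every member. The PQ 4w libraries ran from 34.0 to 98.4 FPKM for Ifit3 and from 18.4 to 79.2 FPKM for Irf7. Ranks without replicate 3 were not computed. Every member had counts in each of the 12 libraries.

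The genes around the members were read from lists of the interferon pathway. Of all tested genes 25.9% rose and 22.9% fell at 1w, and 5.75% rose and 6.39% fell at 4w. For 14.1% the difference between the times passed above 0. The counts of the lists were not tested against these shares. Of 21 interferon ligands 17, Ifnb1 among them, had no row in the tables and 1 was tested: Ifng, the gene of interferon gamma, was at 0.0540 to 0.830 CPM over the 12 libraries and passed at neither time (log2 -0.77 ± 0.69, adjusted p = 0.3803 and log2 0.17 ± 0.62, adjusted p = 0.892). Of 6 receptor genes 2 rose and 2 fell at 1w and 0 passed edgeR's test at 4w, with 2 higher and 0 lower at an unadjusted p under 0.05. Ifnlr1 and Ifngr1, receptor chains for interferon lambda and gamma, fell at 1w (log2 -0.47 ± 0.09, adjusted p = 0.00134 and log2 -0.35 ± 0.08, adjusted p = 0.00257). Ifngr2, the other chain for interferon gamma, and Ifnar1, a type I chain, rose at 1w (log2 0.34 ± 0.09, adjusted p = 0.00837 and log2 0.17 ± 0.07, adjusted p = 0.0482). Of 9 kinases and factors 5 fell at 1w and 4 rose at 4w, and for 7 the difference between the times passed. Irf1 and Irf2 fell at 1w (log2 -0.75 ± 0.08, adjusted p = 1.45e-05 and log2 -0.64 ± 0.07, adjusted p = 2.40e-05) and did not pass at 4w (log2 -0.04 and -0.03).

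Of 9 inhibitors 3 rose and 2 fell at 1w, and 1 rose and 1 fell at 4w. The shares of all tested genes were 25.9% risen and 22.9% fallen at 1w, and 5.75% and 6.39% at 4w. The signalling suppressors Socs1 and Socs3 rose at 1w (log2 0.68 ± 0.22, adjusted p = 0.0232 and log2 1.15 ± 0.12, adjusted p = 1.08e-05), and Pias1, a SUMO ligase, fell (log2 -0.30 ± 0.06, adjusted p = 0.00146). Of 13 sensors and adaptors 2 rose and 2 fell at 1w, and 4 rose and 0 fell at 4w. Among them Tmem173, the gene of STING, rose at both times (log2 0.60 ± 0.12, adjusted p = 0.00133 and log2 0.62 ± 0.12, adjusted p = 0.00876), and Trim25, which activates RIG-I, fell at 1w (log2 -0.48 ± 0.09, adjusted p = 0.000875). Eif2ak2, the RNA-dependent kinase PKR, rose at 4w (log2 0.46 ± 0.13, adjusted p = 0.0369).

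Of 45 further induced genes 42 were tested: 22 fell and 1 rose at 1w, 14 rose and 1 fell at 4w, and for 24 the difference between the times passed in the same direction as in the members. Over all tested genes 22.9% fell and 25.9% rose at 1w, 5.75% rose and 6.39% fell at 4w, and 14.1% passed for that difference. The median log2 effects of the list were -0.44 at 1w and 0.42 at 4w. Slfn5 fell at 1w (log2 -1.02 ± 0.14, adjusted p = 0.000115), and Lgals3bp, a secreted glycoprotein, was the gene that rose (log2 0.57 ± 0.09, adjusted p = 0.000179), and it rose at 4w as well (log2 0.88 ± 0.09, adjusted p = 0.000291). Cxcl10, a chemokine for T cells, was at 3.42, 2.77 and 2.41 CPM in control 1w, 4.96, 4.05 and 6.87 CPM in PQ 1w, 1.75, 2.34 and 1.403 CPM in control 4w and 3.48, 3.55 and 34.7 CPM in PQ 4w. It did not pass at 1w (log2 0.87 ± 0.75, adjusted p = 0.359) and passed at 4w (log2 2.85 ± 0.77, adjusted p = 0.0327), where replicate 3 lay far above replicates 1 and 2.

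Markers of several cell types fell at 1w, as the members did. Of all tested genes, 22.9% fell and 25.9% rose at 1w, and 14.1% passed the difference between the times above 0. At 1w, 7 of 7 NK cell markers, 7 of 7 T cell markers and 6 of 6 B cell markers fell. Their summed levels were 81.4 to 91.8, 81.0 to 99.8 and 115 to 129 CPM in control 1w, against 9.31 to 14.1, 37.0 to 41.9 and 27.3 to 30.1 CPM in PQ 1w. The 5 plasmacytoid dendritic cell markers summed to 14.8 to 17.9 CPM in control 1w and 9.32 to 11.98 CPM in PQ 1w, with 2 fallen, and Klk1 of this list was at 0 in replicates 1 and 3 of PQ 1w. The monocyte-derived macrophage markers went the other way from the members at 1w: 6 of 6 rose, from 144 to 190 CPM to 625 to 813 CPM. The alveolar macrophage sum was also higher at 1w, at 1240 to 1715 CPM against 344 to 352 CPM, with 2 of 6 markers risen and 2 fallen. Endothelial markers fell, 6 of 6 at each time, from 3698 to 4157 CPM to 2317 to 2699 CPM at 1w. Alveolar type 2 markers also fell, 6 of 6, from 23939 to 29860 CPM to 14588 to 16141 CPM. The difference between the times passed above 0 in 7 of 7 NK, 7 of 7 T and 5 of 6 B cell markers. It also passed above 0 in 4 of 5 plasmacytoid dendritic cell and 5 of 6 alveolar type 2 markers. Club and ciliated cell markers passed above 0 in 2 of 3 and 1 of 4. In the monocyte-derived macrophage, alveolar macrophage and endothelial lists 0 of 6 each passed above 0. Club cell markers summed to 21909 to 30441 CPM in control 1w and 4246 to 5362 CPM in PQ 1w, with 2 of 3 fallen, and ciliated cell markers to 389 to 558 CPM and 209 to 239 CPM, with 1 of 4 fallen. The part of these cell types in the result at 1w was not tested.

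**Figure D5:**
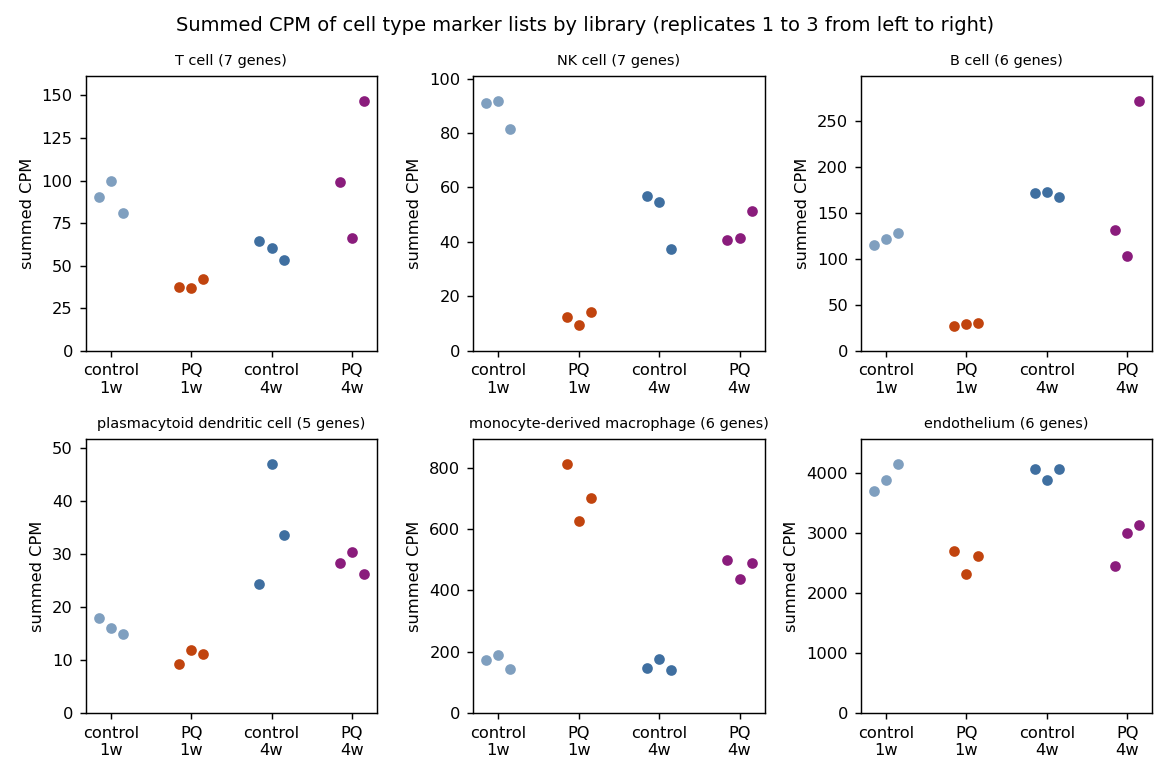
Summed CPM of 6 marker lists (y axis of each panel) in the 4 groups (x axis), with 1 point per library. T, NK and B cell markers are lowest in PQ 1w, and T and B cell sums of PQ 4w are highest in replicate 3, at 147 and 272 CPM.

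At 4w the summed T cell markers were 53.3 to 64.6 CPM in control 4w and 98.9, 66.5 and 147 CPM in PQ 4w. Of these 7 markers 3 rose, against 5.75% of all tested genes. The B cell sum was 168 to 173 CPM in the controls and 132, 103 and 272 CPM in PQ 4w, with 0 of 6 passing edgeR's test and 1 lower at an unadjusted p under 0.05. Replicate 3, the library with the highest level of every member, was also the highest of the 3 in both sums. It was highest in the classical monocyte sum as well, at 136 CPM against 98.9 and 83.3 CPM in replicates 1 and 2. The same held for alveolar macrophage (405 against 230 and 304 CPM) and neutrophil markers (131 against 88.5 and 94.1 CPM). It held too for alveolar type 1 (3102 against 1753 and 2702 CPM) and endothelial markers (3135 against 2457 and 3003 CPM). Alveolar type 2 markers were at 25628 against 24997 and 24167 CPM. In the patrolling monocyte and monocyte-derived macrophage sums replicate 3 lay between the other replicates. In the airway sums it was lowest: ciliated cell markers were at 451 CPM against 893 and 792 CPM, and club cell markers at 23558 CPM against 37583 and 47057 CPM. Its NK cell sum was 51.2 CPM against 40.6 and 41.3 CPM in replicates 1 and 2 and 37.3 to 56.7 CPM in control 4w. Its plasmacytoid dendritic cell sum, 26.2 CPM, was the lowest of the PQ 4w libraries, which ran up to 30.3 CPM, and control 4w ran from 24.4 to 47.0 CPM. Monocyte-derived macrophage markers rose 6 of 6, to 437 to 499 CPM from 141 to 176 CPM. In the plasmacytoid dendritic cell, classical monocyte and alveolar type 2 lists 1 of 5, 1 of 3 and 1 of 6 markers rose at 4w. Their median log2 effects were 0.65, 0.56 and 0.19. In the remaining marker lists 0 rose, and 0 were higher at an unadjusted p under 0.05. Of NK cell markers 0 of 7 passed, and 5 of 6 neutrophil markers and 2 of 6 alveolar macrophage markers fell, against 6.39% of all tested genes. The part of these cells in the result at 4w, and in the position of replicate 3, was not tested.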

How the data were processed

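Per the labels' protocols, RNA came from homogenized lung and a BGISEQ 500 was used for sequencing. HISAT, RSEM 1.2.12 and mm10 are named in the submitters' processing notes. The expected counts per gene were deposited by the authors unscaled, and FPKM (per transcript length and library size) stood beside them, per the file headers. Strand and annotation are not given in the sources.

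Genes without a row in a library's table were set to 0, 27 symbols turned into dates were restored from gene IDs, and expected counts, 69.7% of them whole, were rounded. CPM used library totals. The main test was edgeR 4.0.16 (R 4.3.3), glmQLFit and glmQLFTest on 12 libraries with 4 group means, TMM factors of 0.974 to 1.06 and filterByExpr (minimum count 10, minimum total 15), with Benjamini-Hochberg adjustment over 15921 genes. A standard error is the log2 effect over the square root of F. The fits' calls, but not this standard error, were tested on simulated data. Contrasts were PQ against control at each time, the difference of these effects, and each treatment across time. Alternatives were DESeq2 1.42.0, limma 3.58.1 on log2(FPKM + 0.1) or log2(FPKM + 1) with and without a filter at a mean FPKM of 0.1, other scalings and filters, a replicate block, summed near-identical copies and each library left out. The listed length of 24.69% of genes varied from library to library, which touches FPKM.

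The members, roles and pathway and marker lists were chosen with earlier results of these data known. Values in every library were given for the members with the largest and smallest effect of each role and for those that passed in opposite directions in any 2 comparisons. Replicates differed by more than sampling noise, with a chi-square of at least 7.13 per degree of freedom. Gene positions and promoters came from RefSeq GRCm38.p6, and shared 50-base words from the reference transcripts. Protein sequences were not analysed here.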

Additional observations from a re-analysis of the deposited data

Results flagged for a closer look

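For 40 of the 45 members the effect of PQ differed between 1w and 4w by edgeR's test of the difference itself, and every one of the 40 differences was above 0. The values below are log2 differences, 4w minus 1w. Among the sensors they were 0.63 for Ddx58, 0.71 for Ifih1, 1.28 for Dhx58 and 1.79 for Zbp1. Among the transcription factors they were 0.99 for Irf9, 1.195 for Stat2 and 2.11 for Irf7. In the OAS family they ran from 1.39 for Oasl2 through 1.96 for Oas1a, 2.01 for Oasl1, 2.12 for Oas3 and 2.28 for Oas2 to 2.57 for Oas1g. Mx2 and Mx1 were at 2.28 and 2.78. Ifit3b and Ifit1 were at 1.25 and 1.58, and Usp18 and Isg15 at 1.13 and 1.82. Summed with its close copy Ifit3, Ifit3b did not pass for this difference (log2 0.97, adjusted p = 0.109).

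Among the other effectors Ifi35 was lowest at 0.53, followed by Isg20 at 0.87, Xaf1 at 0.95, Parp14 at 1.18, Cmpk2 at 1.33, Trim30a at 1.35 and Rtp4 at 1.47. Rsad2 and Ifi44 were highest there, at 2.39 and 2.60. The IRG genes were at 0.99 for Irgm1, 1.22 for Ifi47, 1.43 for Irgm2 and 1.65 for Igtp. The GBP genes were at 1.19 for Gbp2, 1.27 for Gbp7, 1.39 for Gbp4, 1.44 for Gbp3, 1.58 for Gbp5, 1.86 for Gbp8 and 2.36 for Gbp6. Gbp10, the member with the fewest counts, had the largest value, 4.22. Groups of 3 libraries are too small for a test of single outlying samples.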

How the results depend on the processing

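No member that passed changed direction under any alternative run. Fits on only the groups of a comparison called 38 members lower and 2 higher at 1w, 2 higher at 4w and 10 lower in control 4w than in control 1w, when 51.2%, 4.79% and 14.6% of all genes were called in either direction. limma on log2(FPKM + 0.1) without a filter called 15 higher at 4w, and 6.97% of all genes in either direction. Leaving out each library in turn gave 18 to 36 members lower and 0 to 2 higher at 1w, 3 to 37 higher at 4w, 36 to 42 with a larger effect at 4w than at 1w, 38 to 44 higher in PQ 4w than in PQ 1w, and 0 to 8 lower in control 4w than in control 1w. In the same order, the shares of all genes called in either direction were 41.7% to 51.4%, 3.98% to 13.1%, 25.6% to 32.6%, 46.4% to 54.4% and 0.759% to 16%. The lowest 4w counts, 3, 6 and 6, came without control 4w replicates 1, 2 and 3, when 3.98%, 6.82% and 7.35% of all genes were called in either direction, and the highest, 37, without PQ 4w replicate 2. The highest counts at 1w and between controls came without PQ 4w replicate 3, which enters these comparisons through the shared estimate of spread. The median log2 effects of the members were -0.67 with it and -0.66 without it at 1w, and -0.21 and -0.22 between controls. The 1w effect of Irf7, for example, was log2 -0.51 ± 0.40 with it and -0.50 ± 0.16 without it. Why that library stood apart, and why the other counts ranged as they did, was not tested. With 3 libraries per group, members under about 5 CPM such as Gbp10 have wide errors.

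Replicate numbers did not pair the samples: same-numbered libraries of different groups had correlations of their deviations from -0.35 to 0.282. With the replicate block 29 members were lower at 1w, 25 higher at 4w, and 41 differed between the times. Of all genes 48%, 10.3% and 30.3% were called in either direction. Of the 25 higher at 4w, 21 were shared with the fit without the block: Zbp1, Ifit3b, Isg15 and Ifi44 were lost and Stat2, Parp14, Irgm2 and Gbp4 gained.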
